A study of Mus musculus with 12 samples.

Results

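The cytosolic ribosomal protein genes were taken by symbol: Rpsa, Rplp0, Rplp1 and Rplp2, and every symbol that starts with Rpl or Rps followed by a digit, without the pseudogenes marked by -ps and without the Rps6k kinases. This gave 87 of the 19405 genes listed in either experiment: 85 of 17043 in the KO experiment and 87 of 17833 in the NS-DADm experiment. Rpl32l and Rps4l were listed in the NS-DADm experiment alone. The symbol rule also takes Rps19bp1 and Rpl7l1, which are not subunits of the ribosome, and Rpl32l, Rpl37rt and Rps4l, which GENCODE M21 lists as processed pseudogenes, transcribed ones in the case of Rpl37rt and Rps4l. It leaves out Fau and Rack1, among others, which encode ribosomal proteins under other names and are described separately.

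Ribosomal proteins fold and hold the ribosomal RNA of the small subunit, which reads the mRNA, and of the large subunit, which joins amino acids. Their mRNAs are among the most abundant of any cell, carry a run of pyrimidines at their start (the TOP motif) through which mTORC1 controls their translation, and encode proteins that a cell needs in matching amounts. A few genes have a paralog used in particular tissues, and heart and skeletal muscle carry RPL3L, a muscle form of the large subunit protein RPL3 that replaces it in a share of the ribosomes.

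The study sequenced total RNA from mouse hearts, with 12 libraries in 4 groups of 3. HDAC3 is a histone deacetylase that is active when bound to nuclear corepressors such as NCOR1, and the study set loss of the protein against loss of its enzyme activity. Libraries labelled as HDAC3 knockout (KO) were compared with a WT group of their own, and NS-DADm libraries, in which the activating domains of such corepressors are mutated and which the labels describe as having inactive HDAC3, with a second WT group. The sources used here do not give the age, sex or strain of the mice, the promoter that drives the deletion, or whether hearts were pooled. No label names an animal, although the libraries are called biological replicates, so each p-value reflects library-to-library spread, part of which may be technical.

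Levels are FPKM (fragments scaled to gene length and library total). Means are given ± SD (n = 3 libraries). The targeted gene Hdac3 stood at 8.51, 7.31 and 7.88 FPKM in KO hearts, against 27.83, 29.45 and 27.12 FPKM in WT hearts. It averaged 29.8 ± 0.804 FPKM in NS-DADm hearts and 29.8 ± 2.02 FPKM in their WT. The Y-linked gene Ddx3y was at 21.43 to 22.13 FPKM in the 3 KO libraries and listed at 0 in their WT, so that sex and genotype cannot be told apart in the KO experiment. In the other experiment it was at 0.06 FPKM or less in all 6 libraries. Of the ribosomal protein genes 4 lie on the X chromosome (Rpl10, Rpl36a, Rpl39 and Rps4x). Among genes with 40 to 1000 estimated fragments, KO replicates differed pairwise by a mean chi-square of 1.22 to 1.33 and those of its WT by 1.45 to 1.62, where counting noise gives about 1. NS-DADm replicates differed by 5.56 to 9.55 and their WT by 3.24 to 9.07. For the ribosomal protein genes, which have far more fragments, it was 7.72 to 15.7 in KO and 13.5 to 15.3 in its WT. For the same genes it was 12.5 to 43.5 in NS-DADm and 14.45 to 25.5 in its WT, so that these ranges partly overlapped. Fragments of the ribosomal protein genes were estimated with the longest transcript of each, which can overstate both fragments and chi-square. The genes with 40 to 1000 fragments were limited to those with a single transcript, and both sets rest on estimated depths. Among genes with 40 to 1000 fragments the KO replicates thus lay close together, and small differences could be called in that experiment that could not in the other. Atrial marker genes were uneven among NS-DADm libraries: the summed level of the 12 markers was 3866.70, 613.82 and 6707.08 FPKM in NS-DADm libraries and 575.38, 308.37 and 4811.75 FPKM in their WT.

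Most ribosomal protein mRNAs were modestly higher in KO hearts. Of 84 tested, 63 rose and 2 fell, with limma on log2(FPKM + 1) at an adjusted p under 0.05 over all genes. As background, 38.2% of all genes tested rose and 27.6% fell in this comparison, 65.8% in all. The median log2 fold change of the ribosomal protein genes was 0.24, beside 0.06 for all 11810 genes tested, and their middle 50% lay between 0.15 and 0.38. The rises were modest: 12 lay under 0.2 on the log2 scale, 34 between 0.2 and 0.4, 16 between 0.4 and 0.6, and only that of Rpl3 lay above. The median SE was 0.04. Both subunits, assigned by symbol, took part: of the large subunit 38 of 50 genes rose and Rpl3l fell, with a median of 0.24, and of the small subunit 25 of 32 rose and Rps2 fell, also with a median of 0.24. The 50 include the pseudogene Rpl37rt, which was not called. In 65 of 84 genes all KO libraries lay above all WT libraries, where 40.2% of all genes did, and in 2 genes all lay below, where 29.6% did. The count depends on the scaling: with the listed genes of each library scaled to one sum 73 rose and 2 fell, with factors from a trimmed mean of M-values (TMM) 51 rose and 6 fell, with centring on the median of each library 48 rose and 6 fell, and Rpl7a, Rps21 and Rps4x were then among the additional falls. Over all genes the called split was 4515 higher and 3260 lower as deposited, and 3640 higher and 4150 lower with median centring. With TMM factors it was 3823 higher and 3908 lower of 11793 genes. With the listed genes scaled to one sum it was 5558 higher and 2732 lower of 12411 genes.

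**Figure D1:**
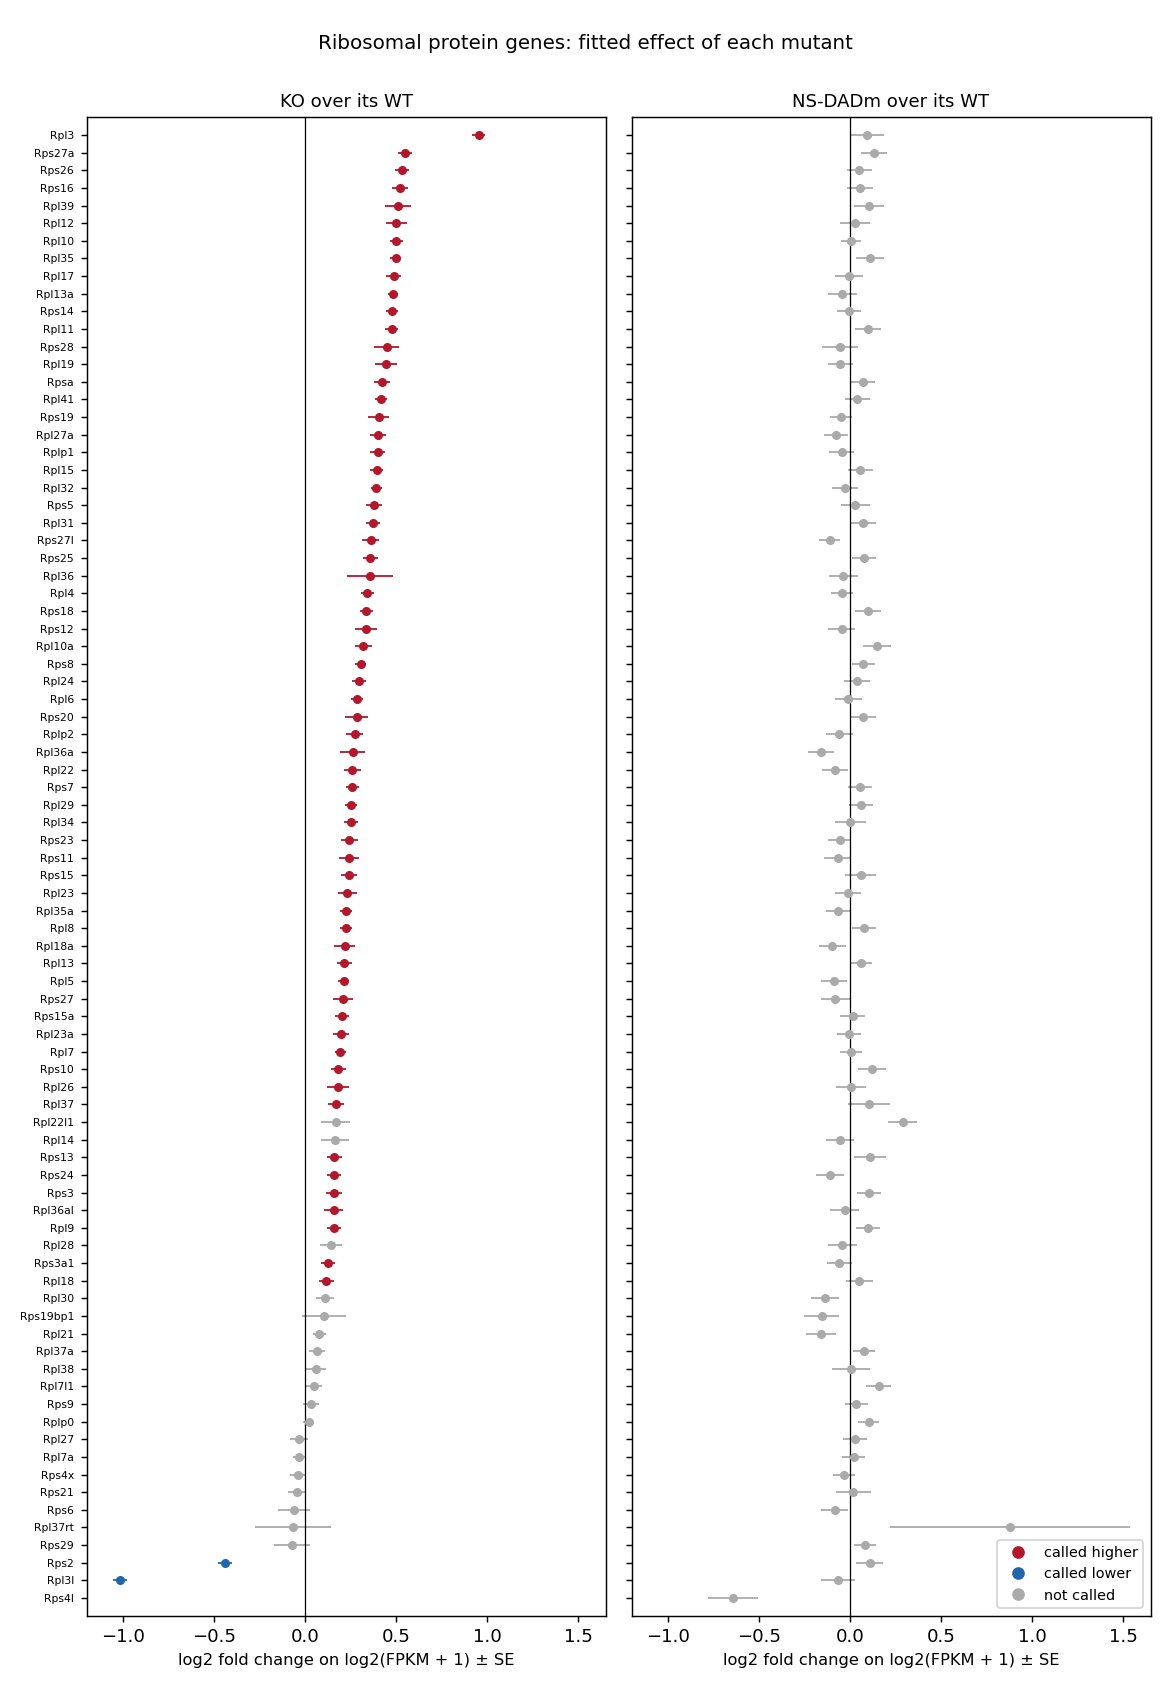
Fitted log2 fold change with its standard error (horizontal axes) of the ribosomal protein genes (vertical axis, ordered by the KO effect; 1 gene that is not called is not drawn) in KO hearts over their WT on the left and in NS-DADm hearts over their WT on the right; red marks genes called higher, blue called lower and grey not called. In KO hearts 63 genes lie to the right and are called, and Rpl3l and Rps2 to the left, while none is called in NS-DADm hearts.

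Added together, these genes made up 8.30, 8.52 and 8.53% of the summed FPKM in KO libraries, against 6.87, 6.73 and 6.62% in WT libraries. In NS-DADm libraries they made up 6.33, 5.94 and 5.99%, against 6.09, 5.93 and 5.83% in their WT. The KO libraries all lay above their WT, while the NS-DADm libraries overlapped theirs. Because FPKM is a share of the library, a heavier or lighter load of other abundant mRNAs moves all ribosomal protein genes together. In bulk tissue more mRNA per cell and more cells rich in such mRNA cannot be told apart.

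**Figure D2:**
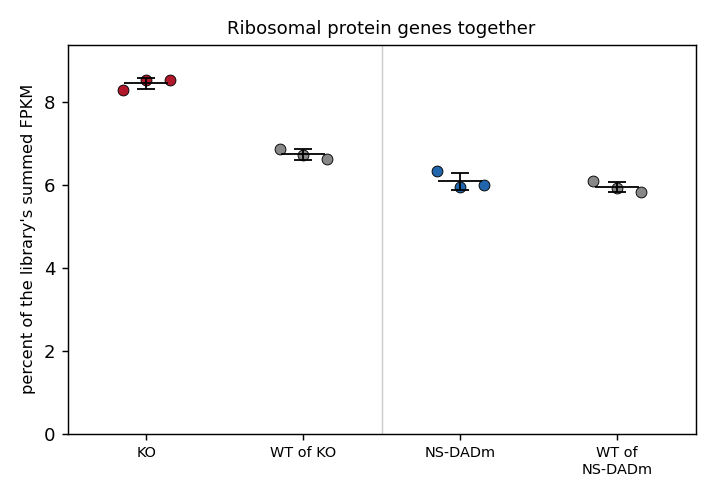
Summed FPKM of the ribosomal protein genes as a percent of the summed FPKM of each library (vertical axis), for KO, its WT, NS-DADm and its WT; points are libraries, bars and whiskers the mean and SD of 3 libraries. KO libraries lie between 8.30 and 8.53%, above the 6.62 to 6.87% of their WT.

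The largest rise and the largest fall belonged to a paralog pair. RPL3 is the large subunit protein that reaches closest to the peptidyl transferase centre, and RPL3L takes its place in muscle ribosomes. Rpl3l stood at 110.54, 109.18 and 105.71 FPKM in KO hearts, against 218.64, 230.19 and 212.71 FPKM in WT hearts. Rpl3 stood at 300.02, 312.61 and 315.58 FPKM in KO hearts, against 163.10, 156.78 and 158.43 FPKM in WT hearts. The groups were far apart for both genes and moved in opposite directions. The log2 fold change was -1.02 for Rpl3l (SE 0.04, limma adjusted p = 2.92e-09) and 0.95 for Rpl3 (SE 0.03, limma adjusted p = 1.87e-09).

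The sum of both genes differed far less than either. It averaged 417.9 ± 6.34 FPKM in KO hearts and 380.0 ± 8.07 FPKM in WT hearts (SD, n = 3 each). The share of Rpl3l in it was 25.97 ± 0.919% in KO hearts and 58.0 ± 1.27% in WT hearts. An exact two-sided permutation test gave p = 0.1 for each of these differences, the smallest p that 3 against 3 libraries allow. In NS-DADm hearts Rpl3l made up 51.8, 60.6 and 48.5% of the sum, against 56.0, 59.1 and 54.3% in their WT (exact permutation p = 0.5). These groups overlapped. In both groups of that experiment the library with the lowest atrial marker sum had the highest Rpl3l share and that with the highest sum the lowest share; the part of atrial tissue in this was not tested. KO hearts had atrial marker sums of 1963.10 to 2020.13 FPKM against 166.08 to 174.36 FPKM in WT hearts. Nppa, which stressed ventricles also express, gave 1812.65 to 1876.64 FPKM of this in KO hearts and 112.13 to 119.74 FPKM in WT hearts, and Bmp10 was at 0.25 FPKM or less in every library of that experiment. Of 8 atrial markers tested, 4 rose and 3 fell in KO hearts. Myl4 averaged 79.2 ± 3.17 FPKM in KO hearts and 9.01 ± 1.01 FPKM in WT hearts, and Sln 35.5 ± 2.54 FPKM in KO hearts and 2.83 ± 1.09 FPKM in WT hearts. Myl7 rose by 0.53 on the log2 scale, and Stard10, Sbk2 and Tbx5 fell. The part of atrial tissue in the KO values of Rpl3 and Rpl3l was not tested either. The pair can be told apart by its reads: the longest run shared by Rpl3 (transcript of 1351 bases) and Rpl3l (1375 bases) was 22 bases. Rpl3l shared no run of 75 bases with any other gene, whereas 83.2% of the 75-base runs of Rpl3 occur in transcripts of 8 other genes, so that the level of Rpl3 depends on how such reads were assigned.

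**Figure D3:**
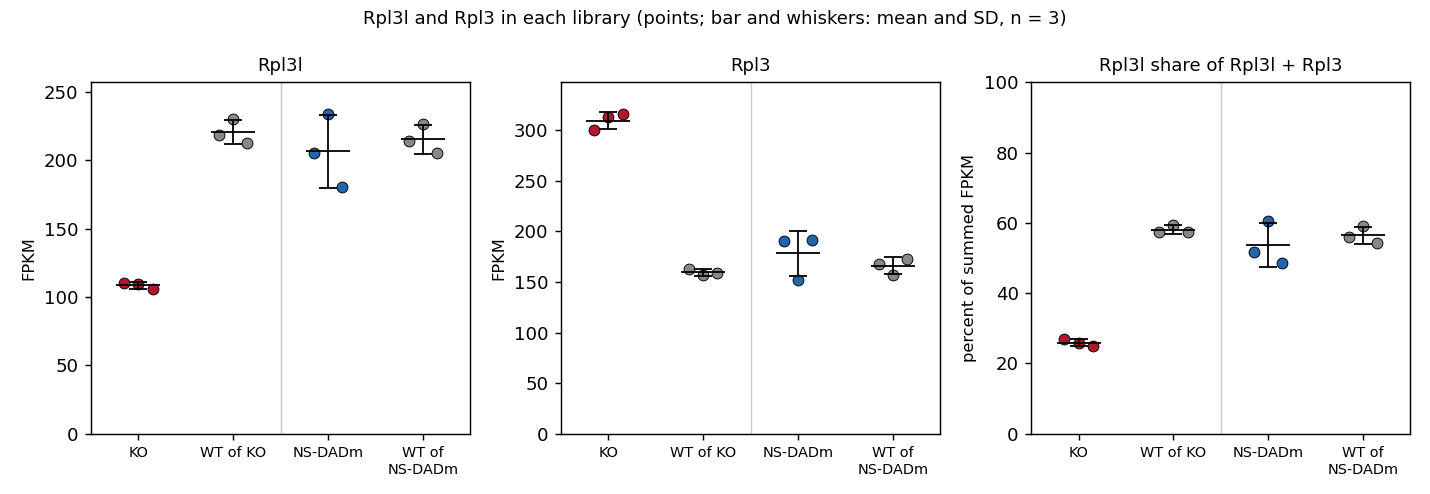
FPKM of Rpl3l and of Rpl3 and the share of Rpl3l in their sum (vertical axes) in each library of KO, its WT, NS-DADm and its WT; bars and whiskers are the mean and SD of 3 libraries. Rpl3l lies at 105.71 to 110.54 FPKM in KO hearts and at 212.71 to 230.19 FPKM in their WT, and Rpl3 shows the opposite.

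Rps2 was the other gene that fell in KO hearts. RPS2 lines the channel through which mRNA enters the small subunit, and Rps2 had the highest mean level of all ribosomal protein genes in the WT groups of both experiments. It stood at 1095.22, 1128.79 and 1043.37 FPKM in KO hearts, against 1468.69, 1551.23 and 1418.34 FPKM in WT hearts. All KO libraries lay below all WT libraries, with a log2 fold change of -0.44 (SE 0.04, limma adjusted p = 3.17e-06). Some 64.4% of its 75-base runs occur in transcripts of 50 other genes. In NS-DADm hearts Rps2 averaged 1179 ± 82.5 FPKM and in their WT 1094 ± 71.3 FPKM (log2 fold change 0.11, limma adjusted p = 0.482).

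Rps2 and Rpl3l lie close together on chromosome 17 in GRCm38, both on the plus strand, at chr17:24718116-24721929 and chr17:24727820-24736143, with 5891 bases between them. The windows from 150 bases before to 25 bases after their RefSeq starts (GRCm38.p6, plus strand) are shown because these are the 2 genes that fell. Rpl3l has a pair of RefSeq starts, with windows at chr17:24727676-24727850 for start 1 and chr17:24732535-24732709 for start 2, and the window of Rps2 lies at chr17:24719913-24720087. Capitals mark matches to the motifs described further on, other than the E-box CANNTG, which is marked in no window: the MEF2 motif in Rpl3l start 2, and in Rps2 the ETS motif (CCGGAAG), the SP1 motif (GGGCGG) and TATAAA, each on either strand. Apart from E-boxes, start 1 of Rpl3l held no match in this window.
Rpl3l start 1: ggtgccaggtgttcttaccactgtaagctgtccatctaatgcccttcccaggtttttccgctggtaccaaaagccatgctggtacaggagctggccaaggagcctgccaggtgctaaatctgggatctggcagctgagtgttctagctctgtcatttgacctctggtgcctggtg
Rpl3l start 2: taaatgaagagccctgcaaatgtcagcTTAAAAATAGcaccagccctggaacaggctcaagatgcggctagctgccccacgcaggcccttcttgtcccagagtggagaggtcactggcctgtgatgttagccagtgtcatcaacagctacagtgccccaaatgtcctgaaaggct
Rps2: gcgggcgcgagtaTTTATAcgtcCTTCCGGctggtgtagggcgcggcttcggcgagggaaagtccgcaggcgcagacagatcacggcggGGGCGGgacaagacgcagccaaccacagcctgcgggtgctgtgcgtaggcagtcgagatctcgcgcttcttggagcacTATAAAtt

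Other large subunit genes rose by less than Rpl3 in KO hearts. Rpl39, whose small protein lines the exit tunnel, stood at 376.39, 438.17 and 445.05 FPKM in KO hearts, against 321.52, 271.79 and 289.77 FPKM in WT hearts (log2 fold change 0.51, SE 0.07, limma adjusted p = 8.67e-05). Rpl10, added late in assembly close to the tRNA sites, stood at 1043.10, 1138.27 and 1113.54 FPKM in KO hearts, against 767.82, 768.95 and 791.49 FPKM in WT hearts (0.50, limma adjusted p = 4.89e-07). Neither gene's groups overlapped. Rpl35, found at the exit of the tunnel, averaged 1368 ± 22.3 FPKM in KO hearts and 969.9 ± 32.8 FPKM in WT hearts, and Rpl12, at the base of the stalk, 793.9 ± 52.5 FPKM and 561.1 ± 44.2 FPKM in the same order. Rpl23a, the docking site of the signal recognition particle, rose less, to 1316 ± 40.8 FPKM in KO hearts, against 1151 ± 69.9 FPKM in WT hearts (log2 fold change 0.19, limma adjusted p = 0.00238, and 0.0684 with median centring).

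The stalk recruits the elongation factors, and its 3 proteins differed among themselves. Rplp1 averaged 1075 ± 55.5 FPKM in KO hearts and 815.3 ± 26.4 FPKM in WT hearts (log2 fold change 0.40, limma adjusted p = 8.64e-06). Rplp2 averaged 734.5 ± 23.4 FPKM in KO hearts and 608.7 ± 39.6 FPKM in WT hearts (0.27, limma adjusted p = 0.000374). Rplp0, which anchors the other two, was not called, at 813.0 ± 24.4 FPKM in KO hearts and 802.7 ± 7.83 FPKM in WT hearts (0.02, limma adjusted p = 0.626). Rpl5 and Rpl11 form a particle with the smallest large-subunit rRNA and bind the ubiquitin ligase MDM2 when assembly is disturbed, and both rose. Rpl11 averaged 637.2 ± 23.8 FPKM in KO hearts and 458.1 ± 7.26 FPKM in WT hearts, a log2 fold change of 0.47, and Rpl5 372.3 ± 3.15 FPKM in KO hearts and 321.6 ± 9.22 FPKM in WT hearts, one of 0.21. Rpl13a, which also serves outside the ribosome in silencing of inflammatory mRNAs, rose by 0.48 on the log2 scale and Rpl10a by 0.32. Rpl38, required in mouse embryos for the translation of Hox mRNAs, was not called (0.06, limma adjusted p = 0.382).

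Among the small subunit genes taken by symbol the largest rise was that of Rps27a, whose product is made as a fusion with ubiquitin. It stood at 517.68, 549.05 and 568.89 FPKM in KO hearts, against 372.76, 367.22 and 378.40 FPKM in WT hearts (log2 fold change 0.55, SE 0.04, limma adjusted p = 3.31e-07). Rps26, near the exit of the mRNA channel, stood at 1060.05, 1028.95 and 997.17 FPKM in KO hearts, against 704.61, 747.39 and 682.51 FPKM in WT hearts (0.53, SE 0.04, limma adjusted p = 5.18e-07). Rps16, whose tail reaches the tRNA in the small subunit, averaged 565.0 ± 21.1 FPKM in KO hearts and 393.2 ± 20.8 FPKM in WT hearts (0.52). All 3 genes had fully separate groups. Rpsa, also known as a laminin receptor, rose by 0.42 on the log2 scale, and Rps19, the gene most often mutated in human Diamond-Blackfan anaemia, by 0.40. Rps6, the substrate of S6 kinase, was listed at 15.17, 15.59 and 17.81 FPKM in KO hearts, against 15.60, 15.93 and 19.48 FPKM in WT hearts, among the lowest of these genes, and its groups overlapped. In the other experiment Rps6 averaged 358.2 ± 27.0 FPKM in NS-DADm hearts and 379.3 ± 24.2 FPKM in their WT, and 84.1% of its 75-base runs occur in other genes.

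The windows of Rps26 at chr10:128626482-128626656 and Rpl35 at chr2:39005107-39005281 (GRCm38.p6, minus strand, from 150 bases before to 25 after the RefSeq start) are shown as examples of genes that rose and carry a pyrimidine run at the start. Capitals mark that run and, in Rpl35, also the ETS and SP1 matches.
Rps26: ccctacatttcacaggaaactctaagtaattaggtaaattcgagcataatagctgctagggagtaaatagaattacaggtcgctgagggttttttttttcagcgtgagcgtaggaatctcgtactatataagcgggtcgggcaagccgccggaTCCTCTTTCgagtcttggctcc
Rpl35: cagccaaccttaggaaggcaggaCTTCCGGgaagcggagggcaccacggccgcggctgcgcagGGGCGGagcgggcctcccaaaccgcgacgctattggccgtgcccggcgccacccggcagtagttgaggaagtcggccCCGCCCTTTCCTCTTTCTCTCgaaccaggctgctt

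Of the 19 tested genes that were not called in KO hearts, 11 go by symbol to the large subunit (Rpl7a, Rpl14, Rpl21, Rpl22l1, Rpl27, Rpl28, Rpl30, Rpl37a, the pseudogene Rpl37rt, Rpl38 and Rplp0) and 6 to the small one, among them Rps4x, Rps6, Rps9, Rps21 and Rps29. The others are Rpl7l1 and Rps19bp1. Their log2 fold changes lay between -0.07 and 0.17, so that they were not far from the smallest rises called, such as that of Rpl18 at 0.12. Rpl39l was not tested, as it stayed at or below 0.45 FPKM in every library of either experiment.

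In no other paralog pair were the members called in opposite directions. Rpl22 rose to 113.2 ± 6.50 FPKM in KO hearts, against 94.4 ± 3.71 FPKM in WT hearts (log2 fold change 0.26, limma adjusted p = 0.000657). Its paralog Rpl22l1 was not called, at 45.5 ± 2.42 FPKM in KO hearts and 40.6 ± 5.28 FPKM in WT hearts (0.17, limma adjusted p = 0.0843), and passed with a replicate block, with the listed genes scaled to one sum and without WT replicate 3. Rps27 rose by 0.21 and Rps27l, known as a target of the tumour suppressor Trp53, by 0.36 on the log2 scale. The call of Rps27 was lost with median centring (limma adjusted p = 0.0863) and with TMM factors (0.0568). Rps27l averaged 140.3 ± 7.25 FPKM in KO hearts and 109.1 ± 4.63 FPKM in WT hearts. Rpl36a, on the X chromosome, rose by 0.26 and its autosomal copy Rpl36al by 0.16 (limma adjusted p = 0.00661 and 0.019), and both calls were lost with median centring (0.0542 and 0.278). Rpl7 rose by 0.19, while its nucleolar paralog Rpl7l1, at 0.05, was not called. Rpl7a, which in spite of its symbol is not a paralog of Rpl7, was not called either (-0.03). Rps4x, the X-linked small subunit gene, averaged 614.6 ± 30.0 FPKM in KO hearts and 631.6 ± 30.7 FPKM in WT hearts and was not called as deposited, but called lower with TMM factors (-0.11, limma adjusted p = 0.0371).

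Of 3 ribosomal protein genes tested outside the symbol rule, 2 rose in KO hearts, Fau and Rack1, and 0 fell. Over all genes tested 38.2% rose and 27.6% fell. Fau, a fusion of a ubiquitin-like protein with a small subunit protein, averaged 584.1 ± 8.99 FPKM in KO hearts and 378.8 ± 11.7 FPKM in WT hearts (log2 fold change 0.62, limma adjusted p = 3.61e-08). Rack1, a scaffold on the small subunit, averaged 433.5 ± 24.8 FPKM in KO hearts and 344.4 ± 11.6 FPKM in WT hearts (0.33, limma adjusted p = 6.86e-05).

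Genes that work with the ribosome were counted from lists. As background, 38.2% of all genes tested rose and 27.6% fell in KO hearts. Of 12 translation elongation genes 8 rose and 2 fell in KO hearts (median log2 fold change 0.22). Eef1a1, which brings aminoacyl-tRNA to the ribosome, averaged 1688 ± 11.8 FPKM in KO hearts and 755.1 ± 9.51 FPKM in WT hearts (1.16, limma adjusted p = 8.16e-11), and Eif5a2 and Eef1g rose by 0.53 and 0.51. Of 38 initiation genes 16 rose (42.1%) and 10 fell, near the shares over all genes (median 0.08). The largest called changes among them were those of Eif3j1 (1.402), Eif6 (0.72) and Pabpc1 (0.71). Of 70 ribosome biogenesis genes 34 rose and 7 fell (median 0.13), led by the helicase Ddx56 (1.00), Rrp12 (0.98) and Gnl3 (0.71). Of 15 RNA polymerase I genes 2 rose and 1 fell (median 0.01): Polr1d rose by 0.45, Taf1d by 0.22, and Taf1a fell by 0.96.

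Of 25 genes of mTORC1 and TOP mRNA control 8 rose (32%) and 7 fell in KO hearts, near the shares over all genes (median -0.04). Eif4ebp1, the translation repressor that mTORC1 inactivates, averaged 232.7 ± 4.42 FPKM in KO hearts and 117.1 ± 1.84 FPKM in WT hearts (log2 fold change 0.98, limma adjusted p = 1.02e-09). Its relative Eif4ebp2 fell by 0.50 on the log2 scale. Inhibitors of mTORC1 went both ways: Ddit4, Deptor, Sesn1 and Tsc2 fell by 1.52, 0.69, 0.44 and 0.27, while Sesn2 and Akt1s1 rose by 0.64 and 0.27. Of 25 genes of ribosome surveillance and the MYC family 9 rose (36%, beside 38.2% of all genes) and 3 fell (median 0.02). The largest called changes among them were those of Cdkn1a (2.23), Myc (1.19) and Mycn (0.79). Of 78 mitochondrial ribosomal protein genes 13 rose and 38 fell (median -0.14). In NS-DADm hearts none of the genes on these lists was called except Cdkn1a (1.24, limma adjusted p = 0.00538) and Myc (0.63, limma adjusted p = 0.0222), which rose.

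Markers of other cells moved with the KO group too, where 38.2% of all genes tested rose and 27.6% fell. All 9 macrophage markers rose, with a summed level of 1796.91 to 1837.19 FPKM in KO libraries and 306.20 to 333.16 FPKM in WT libraries. Of 9 fibroblast markers 6 rose and 2 fell, with sums of 1875.79 to 1878.66 FPKM in KO libraries and 763.01 to 803.11 FPKM in WT libraries. All 5 erythroid markers tested fell, 7 of 8 endothelial markers fell, and of 12 cardiomyocyte markers 7 fell and 2 rose, with cardiomyocyte sums of 46761.00 to 47405.81 FPKM in KO libraries and 68645.24 to 72583.80 FPKM in WT libraries. Skeletal muscle markers, of which 5 of 7 were listed, summed to 2948.14 to 2984.34 FPKM in KO libraries and 276.77 to 285.16 FPKM in WT libraries. Of the 4 tested, Acta1 (log2 fold change 3.27), Myl1 (3.72) and Tnnt3 (2.68) rose and Tnni2 fell, and the listed myosin Myh2 stayed below 1 FPKM. Of 7 smooth muscle and pericyte markers 4 rose and 2 fell, with sums of 394.66 to 400.84 FPKM in KO libraries and 294.03 to 306.73 FPKM in WT libraries. Adipocyte markers summed to less than 5 FPKM in every library of the KO experiment. Lymphocyte markers summed to at most 10.42 FPKM in KO libraries and 6.96 FPKM in WT libraries, with Cd3e, Cd8a and Ms4a1 below 1 FPKM in all. In NS-DADm hearts 4 of 9 macrophage markers rose and 0 fell, beside 1.26% and 1.43% of all genes, and all 9 fold changes lay above 0. The macrophage sum was 372.28 to 429.88 FPKM in NS-DADm libraries and 289.74 to 322.76 FPKM in their WT. Of the 12 cardiomyocyte markers only Mybpc3 was called there, and it fell, while no marker of the other lists was called. The part of the marker shifts in the ribosomal protein levels was not tested.

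In NS-DADm hearts no ribosomal protein gene was called. Of 85 tested, limma called 0 higher and 0 lower, where 2.69% of all 11705 genes tested were called, 1.26% higher and 1.43% lower, and 3 had an unadjusted p under 0.05. The median log2 fold change was 0.01, beside -0.02 for all genes, with 47 genes above 0 and 38 below. Of the 85 values 82 lay within 0.2 of 0, and the median SE was 0.07. In 3 genes all NS-DADm libraries lay above all WT libraries (Rplp0, Rpl22l1 and Rpl7l1) and in 2 all lay below (Rps4l and Rps27l), where 9.18% and 15.0% of all genes did. Replicate 1 of both groups gave the highest level of most of these genes, in 70 of 85 for NS-DADm and in 59 for its WT.

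The gene nearest to a call was Rps4l, a transcribed processed pseudogene of the Rps4 family on chromosome 6. It stood at 17.84, 17.65 and 14.39 FPKM in NS-DADm hearts, against 32.71, 24.62 and 22.84 FPKM in WT hearts. All NS-DADm libraries lay below all WT libraries (log2 fold change -0.64, SE 0.14, limma adjusted p = 0.0518). It passed under other settings, with an adjusted p of 0.00944 with a replicate block and 0.0431 without WT replicate 3. In the authors' deposited table it had a signed fold change of -1.55 and a q-value of 0.0103. Rpl22l1 stood at 33.52, 27.48 and 28.98 FPKM in NS-DADm hearts, against 24.04, 23.69 and 25.10 FPKM in WT hearts (0.29, limma adjusted p = 0.0941, and 0.0486 with the spread taken from all 12 libraries). Rpl3 averaged 178.1 ± 22.6 FPKM in NS-DADm hearts and 165.9 ± 8.29 FPKM in their WT, and Rpl3l 206.4 ± 26.5 FPKM and 215.2 ± 10.5 FPKM in the same order, without a call for either. The widest spread was that of the pseudogene Rpl37rt, at 49.3 ± 8.06 FPKM in NS-DADm hearts and 31.4 ± 19.9 FPKM in their WT.

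The difference between the effects of KO and NS-DADm was tested itself over all 12 libraries. It was called for 47 of 84 ribosomal protein genes: 45 had the higher effect in KO and 2 the lower, where 45.9% of all genes were called, 28.2% with a higher and 17.7% with a lower effect in KO. Among the called genes the largest differences were those of Rpl3l (-0.95, SE 0.10, limma adjusted p = 5.53e-06) and Rpl3 (0.86, SE 0.10, limma adjusted p = 1.43e-05). That of Rps2 was -0.55 (SE 0.09, limma adjusted p = 0.00015), and Rpl13a, at 0.52, followed. For the other 37 the difference was not called, which does not show that the effects were alike. The number called was 30 of 84 with TMM factors (26 higher, 4 lower), where 2580 of 11645 genes were called higher and 2655 lower. It was 28 with median centring (24 higher, 4 lower), where 2476 of 11662 genes were called higher and 2773 lower. With the listed genes scaled to one sum it was 62 (60 higher, 2 lower), where 3833 of 12275 genes were called higher and 1742 lower.

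In the authors' deposited tables, 50 of the 85 genes of the KO experiment were higher and 6 lower at a q-value under 0.05. The share of all genes that passes there was not counted, so these counts have no background beside them. The 6 lower ones included Rpl3l, Rpl7a, Rps2, Rps4x and Rps21, and none of the genes called with limma had the opposite sign there. For NS-DADm only Rps4l passed in the authors' deposited table.

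Levels in the WT groups can be set side by side only with care, since the 2 tables were normalized separately. The median level was 510.9 FPKM in the WT of the KO experiment and 378.2 FPKM in the WT of the NS-DADm experiment. The highest levels in the WT of the KO experiment were those of Rps2, Rps27, Rps24, Rpl23a and Rps15, and in the WT of the NS-DADm experiment those of Rps2, Rpl23a, Rplp1, Rpl35 and Rpl41. The lowest levels among genes above 1 FPKM belonged to Rps19bp1 in both. The median ratio of the WT means was 1.30 (KO experiment over NS-DADm experiment), and for 81 of 84 genes the ratio lay within 2-fold. The exceptions were Rps6, at 17.0 FPKM in the WT of the KO experiment and 379.3 FPKM in that of the NS-DADm experiment, Rpl15, at 528.1 and 165.0 FPKM, and Rps21, at 710.3 and 291.6 FPKM in the same order. Rpl3 and Rpl3l were close in both WT groups.

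**Figure D4:**
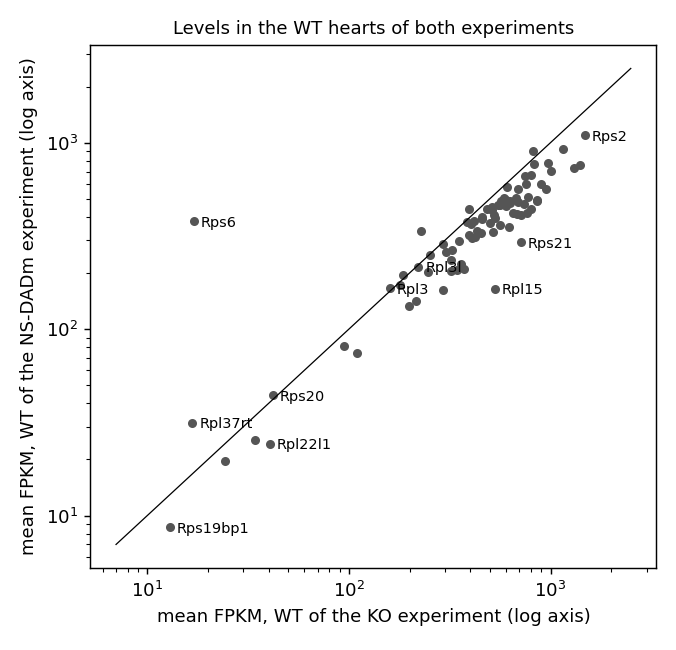
Mean FPKM of each ribosomal protein gene in the WT of the KO experiment (horizontal, log axis) and of the NS-DADm experiment (vertical, log axis), 3 libraries each; the line marks equal values. Rps6 lies far above the line, at 17.0 and 379.3 FPKM, while Rpl15 and Rps21 lie furthest below it.

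Reads of these genes are hard to place, since their processed pseudogenes are many. Of the 87 genes 82 share at least one run of 75 bases with the transcript of another gene (GENCODE M21), and the median share of such runs was 34.4%. Of the 25 genes in which more than 50% of the runs are shared, 19 rose in KO hearts with a median log2 fold change of 0.28, and of the other 59 tested, 44 rose with a median of 0.23. Many of these genes carry small nucleolar RNA genes inside them. Of 30 such hosts 26 rose (median 0.28), and of 54 others 37 (median 0.23).

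RefSeq promoter windows (GRCm38.p6, from 250 bases before to 50 after the start) were found for 66 of the 87 genes. A run of at least 8 pyrimidines from 20 bases before to 25 after the start stood in 33 of the 66, where 20.1% of all 27025 genes have one. The ETS motif CCGGAAG stood in 39.4% against 9.93% of all genes, GGGCGG (SP1) in 60.6% against 38.2%, and AAGATGG (YY1) in 15.2% against 7.28%, each on either strand. TATAAA stood in 12.1% against 15.7%, and the E-box CANNTG in 51.5% against 74.99%. The MEF2 motif was found in 1 of the 66, Rpl3l, and in 3.70% of all genes. The match shown for Rpl3l belongs to start 2, which lies inside the gene as placed by GENCODE M21. A match is a stretch of letters and does not show that a factor binds.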

How the data were processed

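Members, gene lists and tests were chosen with earlier results of these data known. Per the file headers, each experiment has 1 table of FPKM by gene and library, deposited by the authors. The tables also hold the authors' signed fold change, a score that equals the ratio above 1 and minus its inverse below 1, and the authors' q-values. Per the labels' protocols, adapter reads were removed with SOAPnuke 1.5.2. Tools in the submitters' processing notes are RSEM 1.2.12, HISAT2 2.0.4, DESeq2 1.4.5 and Bowtie2 2.2.5, with the build GRCm38.p6 and no roles. Strand use in counting is not stated there. Of 17076 genes deposited for the KO experiment 17043 were kept and of 17857 for NS-DADm 17833, leaving out symbols turned into dates or numbers and repeats. In the NS-DADm table, 1678 to 2236 deposited values per library were given as not available, and these other entries were taken as 0. The KO table has 3 more columns of per-sample values, which fit no sample and were left aside.

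The values are FPKM, so limma 3.58.1 (R 4.3.3) with trended, robust variances was run on log2(FPKM + 1), instead of a count test, for genes of at least 1 FPKM in 3 libraries of the comparison. Benjamini-Hochberg adjustment ran over all genes tested, with calls under 0.05. Fold changes on this scale understate those of low genes. Each mutant was tested within its own table of 6 libraries, and the difference of effects over 12 libraries with 4 group means. The fit was tested on simulated data with known changes. Depth, estimated from the steps of low FPKM values, was 10.1 to 10.7 M fragments (M, mega) in KO libraries, 8.8 to 9.0 M in their WT, 12.7 to 13.2 M in NS-DADm libraries and 10.5 to 11.7 M in their WT. Since only 64.4% to 75.3% of low values came within 0.15 of a whole number (chance, 30.0%), no count test was run. Named were paralogs and proteins of known role, the 8 largest changes called in each direction, and the 5 highest and lowest genes. Positions and transcripts are from GENCODE M21, promoter sequences from RefSeq (GRCm38.p6). Alternatives were other pseudocounts, filters, scalings (including TMM factors), variance models, a replicate block, and leaving out libraries. A few genes are not reported by name here.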

Additional observations from a re-analysis of the deposited data

Results flagged for a closer look

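The effect of KO over its WT differed from that of NS-DADm over its WT for 47 of 84 ribosomal protein genes (limma, test of the difference over 12 libraries, adjusted p under 0.05). As background, 45.9% of all genes were called in this test, 28.2% with a higher and 17.7% with a lower effect in KO. All values given by gene here are the difference of effects in log2 fold change. It was below 0 for Rpl3l (-0.95) and Rps2 (-0.55) and above 0 for the other named genes. In the large subunit it was 0.86 for Rpl3, 0.52 for Rpl13a, 0.49 for Rpl10, 0.47 for Rpl12, 0.44 for Rplp1, 0.42 for Rpl36a, 0.41 for Rpl39, 0.39 for Rpl35, 0.38 for Rpl11, 0.34 for Rpl22, 0.33 for Rplp2, 0.30 for Rpl5 and 0.19 for Rpl7. In the small subunit it was 0.48 for Rps26, 0.47 for Rps16, 0.47 for Rps27l, 0.45 for Rps19, 0.41 for Rps27a, 0.35 for Rpsa, 0.29 for Rps27 and 0.27 for Rps24. No group has the 4 libraries needed to look for a single outlying one.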

How the results depend on the processing

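The number of ribosomal protein genes that fell in KO hearts was 6 with median centring and 6 with TMM in place of 2, and 2 to 4 with single libraries left out, the 4 without WT replicate 3 including Rps29. Rises numbered 59 to 66 without single libraries. The median log2 fold change in KO hearts was 0.33 with the listed genes scaled to one sum, 0.15 with median centring and 0.17 with TMM, and 0.22 to 0.27 without single libraries. In NS-DADm hearts 1 gene fell (Rps4l) with a filter at 5 FPKM, with the listed genes scaled to one sum, with scaling to the rest of the genes and with a replicate block, and 0 to 1 without single libraries; 1 rose (Rpl22l1) with the variance of all 12 libraries. The median there was -0.03 to 0.05 without single libraries. The difference of effects was called for 28 genes with median centring, 30 with TMM, and 39 to 56 without single libraries. The causes were not tested. Rpl3, Rpl3l and Rps2 kept their direction and call in KO hearts under every setting run. Leaving out replicate 1, or replicate 3, of both groups of the NS-DADm experiment, chosen after seeing the data, called 0 genes. Over the named genes 1285 of 1314 repeats kept their side of the threshold, 13 lost and 16 gained a call. None with a call in either fit turned in direction. Genes without a call could change sign and still count as kept. Same-numbered libraries did not pair in the KO experiment, where their deviations correlated at -0.06, -0.02 and 0.00. In the NS-DADm experiment they correlated at 0.01, 0.38 and 0.44, and differently numbered libraries at -0.45 to 0.19. Replicates 2 and 3 thus resembled their same-numbered library in the other group there, which the main test left out of account. The replicate block gave 65 rises and 2 falls in KO hearts and 53 differences, and over all genes 258 rises and 238 falls in NS-DADm hearts in place of 148 and 167.

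Levels rest on FPKM, whose fragments per gene and error are not given, and on reads that many processed pseudogenes share. With 3 libraries a group, changes near the median SE of 0.04 (KO) or 0.07 (NS-DADm) cannot be resolved.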

Other observations

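The genes around Rpl3l and Rps2 were looked at after the values of both were seen. Within 50000 bases on either side of the pair, 7 genes were tested in KO hearts, the pair included, and 3 of them fell, 2 rose and 2 were not called, while 0 of 7 were called in NS-DADm hearts with limma (0 also at an unadjusted p under 0.05). Ndufb10, a complex I subunit that lies between the pair, fell to 733.1 ± 8.26 FPKM in KO hearts, against 1101 ± 20.9 FPKM in WT hearts (log2 fold change -0.59, limma adjusted p = 2.05e-08). Msrb1, next to Rpl3l and on the same strand, rose to 273.4 ± 4.90 FPKM in KO hearts, against 147.4 ± 10.96 FPKM in WT hearts (0.89, limma adjusted p = 5.22e-08). Zfp598 rose by 0.32, and Gfer and Tbl3 were not called. Over all genes tested, 27.6% fell and 38.2% rose in KO hearts, and 2.69% were called in NS-DADm hearts.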
